A study of Mus musculus with 12 samples.

Results

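The Wnt genes described here were chosen by symbol from RNAseq of oligodendrocyte precursor cells (OPCs): every gene named *Wnt*, *Fzd*, *Dkk* or *Sfrp* with a number, together with *Frzb*, *Wif1*, *Lrp5*, *Lrp6*, *Axin1*, *Axin2*, *Lef1*, *Tcf7*, *Tcf7l1*, *Tcf7l2*, *Ctnnb1*, *Apcdd1*, *Nkd1*, *Rnf43* and *Znrf3*. These were 52 of 45563 gene symbols, and they comprised 19 ligands, 12 receptors, 10 secreted inhibitors, 5 intracellular and nuclear genes and 6 feedback genes or known targets. Of the 52, 43 passed the filter on low values and were tested.

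Wnt proteins are secreted, lipid-modified ligands that bind Frizzled receptors together with the co-receptors LRP5 and LRP6. In the canonical pathway the bound receptors stop a complex built on Axin from marking β-catenin for destruction, and β-catenin then joins DNA-binding proteins of the TCF/LEF family to switch on target genes, of which *Axin2*, *Rnf43* and *Znrf3* feed back to dampen the signal. In the oligodendrocyte lineage Wnt signaling is known for holding back the maturation of OPCs, *Tcf7l2* for its role in differentiating oligodendrocytes, and OPCs themselves as a source of *Wnt7a* and *Wnt7b*.

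OPCs were isolated from the cortices of WT or TNFR2-/- mouse pups (both C57BL/6 by the labels) with beads against PDGFRα, a surface marker of OPCs, and expanded for 3 days *in vitro* with PDGF-AA and FGF2, which all 4 groups received. The pups were of postnatal days 2 to 5 by the labels. Cells were either exposed to the PBS vehicle, here non-stimulated (NS), or stimulated (St) for 3 h with TNF, IFNγ and IL1β at 25 ng/mL each. The TNFR2-/- line carries its deletion in the germline, not in OPCs alone. Each of the 4 groups (WT NS, WT St, TNFR2-/- NS and TNFR2-/- St) had 3 libraries, which allowed the cytokine response of the Wnt genes to be compared between genotypes.

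Library totals ranged from 26886878 to 30335265 read pairs. The gene deleted in the mutant, *Tnfrsf1b*, had 12 to 24 read pairs per library in WT NS, 61 to 145 in WT St, 213 to 346 under the label TNFR2-/- NS and 282 to 356 under the label TNFR2-/- St. Its level was higher in the libraries labelled TNFR2-/-, so every direction between genotypes below rests on the labels. Values per gene do not show whether these reads lie in the deleted part, so they do not settle the labels. The 9 OPC markers summed to 7143 to 9968 read pairs per 1000000 of the library total (CPM) across all libraries, and the 8 microglia markers to 0.707 to 1.92. The 8 astrocyte markers had sums of 1971 to 2283 CPM in WT NS, 1858 to 1939 in WT St, against 2854 to 4545 and 2871 to 4451 in the corresponding libraries labelled TNFR2-/-. Sums were 533 to 1299 CPM for the 8 mature oligodendrocyte markers, 28.7 to 63.2 for the 7 endothelial and 75.8 to 872 for the 7 mural and fibroblast markers over the 12 libraries. No marker of these lists was at 0 in all libraries. In bulk RNA of a culture, fewer cells of a type and less RNA per cell cannot be told apart. The labels do not name the culture of a library. The study describes its results as averages of independent experiments, and the p-values measure the spread between these libraries.

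FPKM values are set side by side here only between libraries of the same gene, because the length by which the deposited values were divided did not follow the exon length of the gene. The filter, the minimum mean for a call and the added 0.5 FPKM act across genes, however, and they therefore weigh on genes unequally. So does the mean-dependent prior variance of the limma fit, through which the divisor of a gene bears on its SE and p. The divisor was 126 bases for *Wnt9b* (4518 exon bases) and 6000 for *Wnt5b* (2654 exon bases), so that *Wnt9b*, with 2 to 33 read pairs per library, reached a mean of 1 FPKM and *Wnt5b*, with 45 to 149, did not. To compare genes, read pairs recovered from the FPKM were scaled to CPM and divided by annotated exon length, as CPM per kilobase. On that scale *Ctnnb1*, which encodes β-catenin, was the most abundant Wnt gene in WT NS OPCs, at 165 ± 3.2 CPM per kilobase (SD, n = 3). Among the receptors *Fzd1* led at 27.8 ± 2.51, and it supplied 43.9% to 65.7% of the summed level of the 10 Frizzled genes in the 12 libraries. Among the ligands *Wnt7b* led at 25.1 ± 1.83 and supplied 53.4% to 71.8% of the ligand sum, followed by *Wnt7a* at 4.94 ± 0.567 and *Wnt5a* at 3.00 ± 0.709 in WT NS. *Wnt7b* lay above *Wnt7a* by far more than their SD. *Sfrp1*, a secreted protein that binds Wnt ligands, was the leading inhibitor at 5.14 ± 0.32, and *Znrf3*, a ubiquitin ligase that removes Frizzled receptors from the cell surface, the leading feedback gene at 4.97 ± 0.173.

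**Figure D1:**
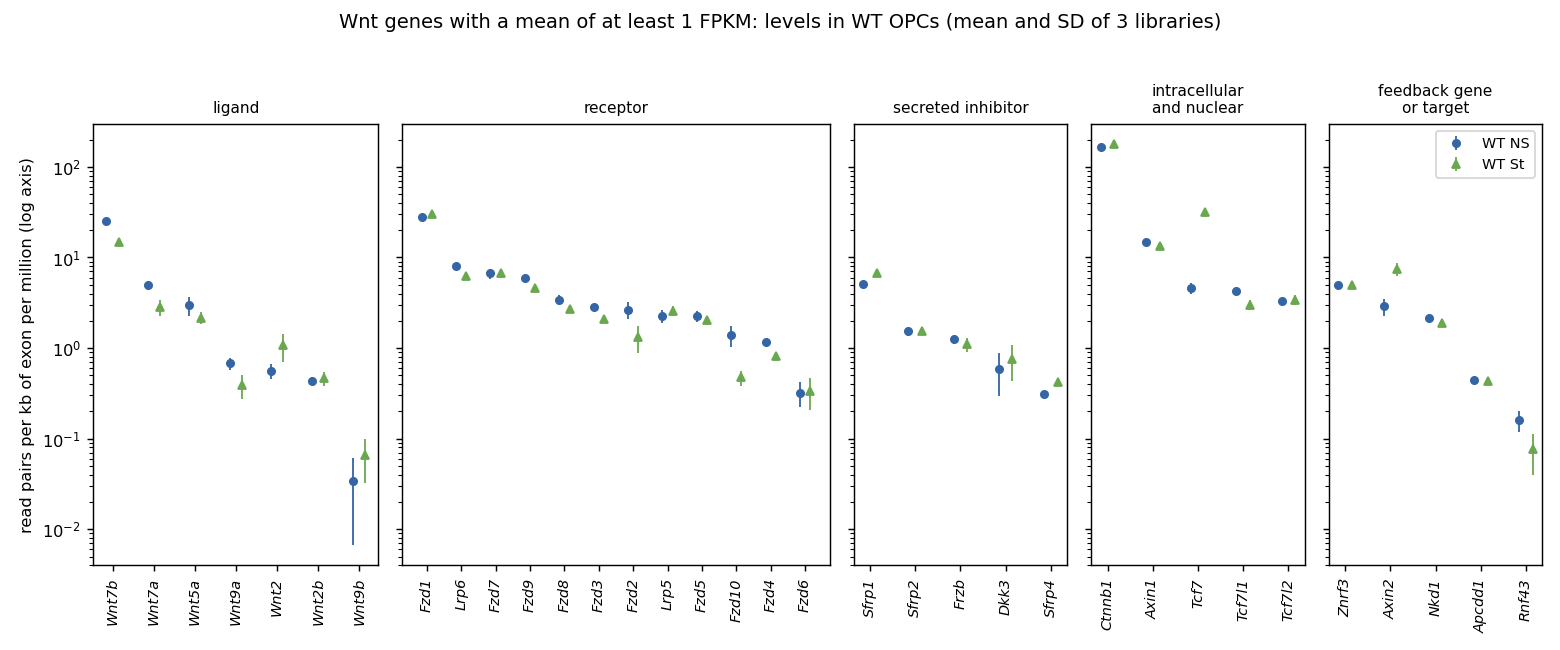
Levels in WT OPCs of the 34 Wnt genes whose mean reached 1 FPKM, as read-pair CPM per kilobase of exon on a log axis, grouped by role; points are means and bars the SD of 3 libraries, circles for NS and triangles for St. *Ctnnb1*, *Fzd1* and *Wnt7b* sit highest in their groups at 165, 27.8 and 25.1 in WT NS, and *Tcf7* moves from 4.62 to 31.9 with stimulation.

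Of the 43 tested members, 9 had a mean under 1 FPKM, among them *Wnt5b* with 45 to 149 and *Wnt4* with 14 to 50 read pairs per library. The 9 genes that were not tested were *Lef1*, *Wnt1*, *Wnt3a*, *Wnt8a*, *Wnt8b*, *Wnt10b*, *Wnt16*, *Dkk2* and *Dkk4*, each with a mean under 0.1 FPKM. *Lef1*, the TCF/LEF gene that is itself a Wnt target, had 5, 2 and 5 read pairs in WT NS and 12, 10 and 11 in WT St OPCs, which did not overlap. In the TNFR2-/- libraries it had 9, 5 and 4 without and 10, 9 and 7 with stimulation, which overlapped. *Wnt3a*, a ligand often used to activate the canonical pathway in culture, was listed at 0 FPKM in all libraries but TNFR2-/- St replicate 5, where it was at 0.0577 FPKM. *Wnt10b*, a canonical ligand, was listed at 0 in all 6 NS libraries and had 1 to 4 read pairs in the 6 St libraries.

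With stimulation, a minority of the tested Wnt genes met the rule for a call that is given next. In both genotypes *Tcf7* and *Axin2* rose while *Fzd10*, *Fzd2*, *Rnf43* and *Wnt7b* fell. Comparisons were made with limma on log2(FPKM + 0.5). A gene was called where its p, adjusted by Benjamini-Hochberg, did not exceed 0.05, where it differed by 1.5-fold or more and where its mean reached 1 FPKM. In WT OPCs 7 of the 43 tested members were called (16.3%), where 7.53% of the 18081 genes tested were. Of the 7, 2 were upregulated (4.58% of all genes) and 5 downregulated (2.95% of all genes). In TNFR2-/- OPCs 9 of 43 were called (20.9%), where 10.1% of all genes were, with 2 upregulated (5.41% of all genes) and 7 downregulated (4.68% of all genes). The WT count was 4 without WT NS replicate 2, WT NS replicate 4 or WT St replicate 3. With the replicate number as a block it was 9, and that in TNFR2-/- OPCs 10. With median-of-ratios scaling the split in TNFR2-/- OPCs was 4 up and 5 down, as *Fzd1* and *Sfrp1* joined the upregulated genes while *Wnt7b* and *Wnt5a* were no longer called. By adjusted p alone there were 12 members in WT, where 16.1% of all genes passed, and 16 in TNFR2-/- OPCs, where 26% passed. The median log2 change of the 43 was −0.007 in WT and −0.121 in TNFR2-/- OPCs, beside −0.055 and −0.109 over all genes tested. In 24 members the WT St libraries did not overlap the WT NS libraries and in 20 the TNFR2-/- libraries did not overlap, where 37.7% and 37.3% of all genes did not. The unadjusted limma p was under 0.05 for 22 members in WT and 22 in TNFR2-/- OPCs. Of the 18081 genes tested, 5019 and 6793 had such a p. A gene that was not called is therefore not shown to be unchanged.

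**Figure D2:**
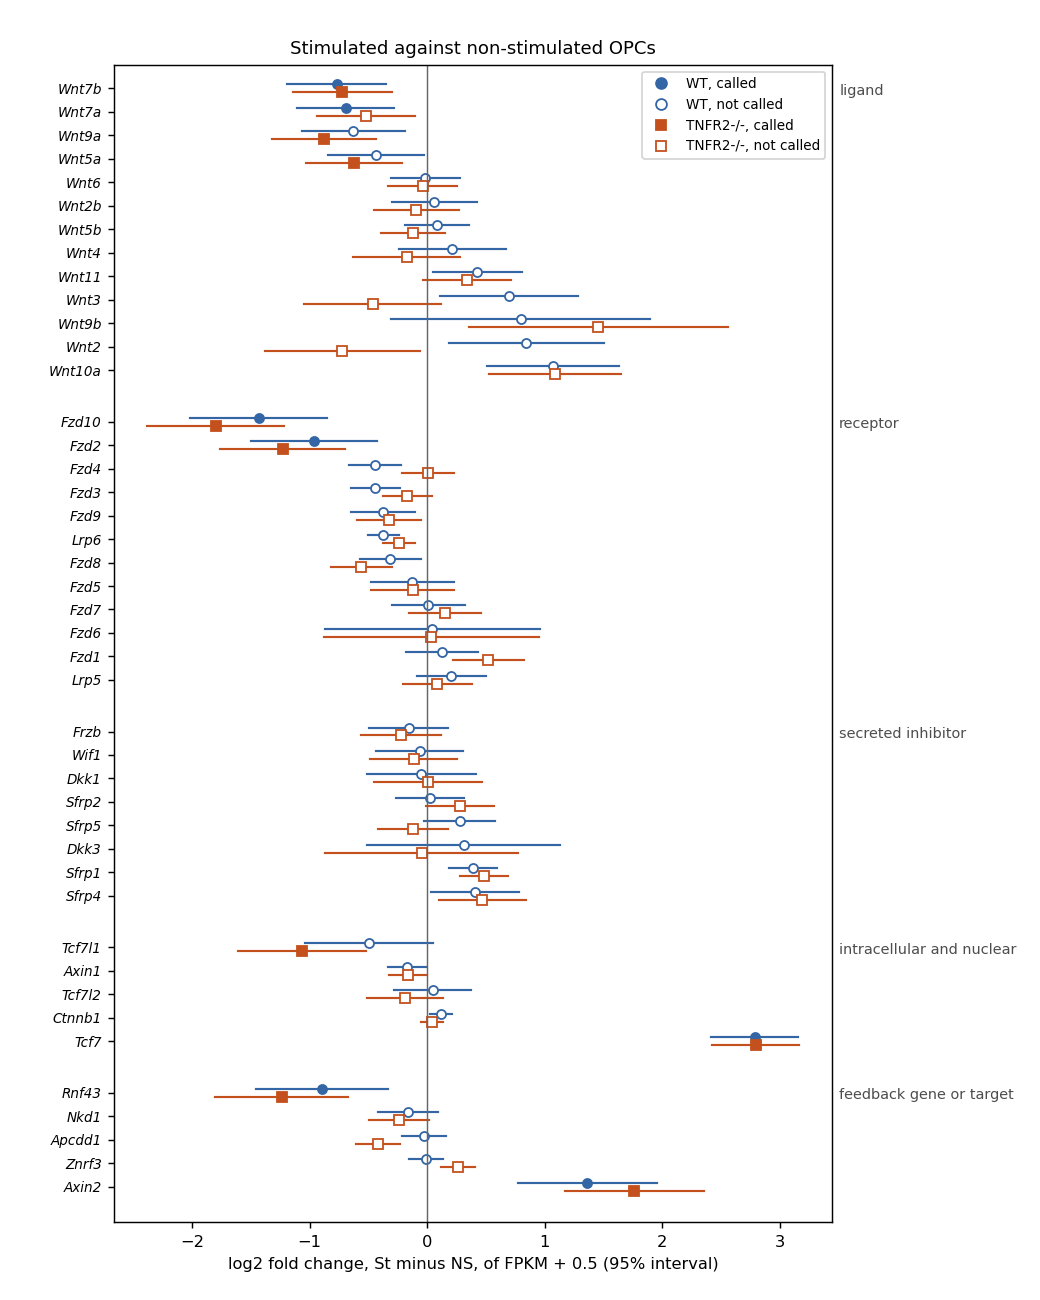
Log2 fold change with stimulation, on the log2(FPKM + 0.5) scale with 95% intervals, of the 43 tested Wnt genes grouped by role, circles for WT and squares for TNFR2-/- OPCs; filled symbols are called genes. *Tcf7* lies farthest to the right at 2.79 and 2.80, and *Fzd10* farthest to the left at −1.43 and −1.80.

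Genes named below that were not called in any comparison were named after their values were seen, apart from *Ctnnb1*, *Lef1*, *Tcf7l2*, *Lrp5*, *Lrp6*, *Fzd1*, *Sfrp1* and *Znrf3*, which the rule for named genes gave.

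Among the intracellular and nuclear genes, *Tcf7* was upregulated in both genotypes. *Tcf7* (ENSMUSG00000000782, chromosome 11 of GRCm38, 52252371 to 52283014, minus strand) encodes TCF1, a TCF/LEF protein made in forms with and without the part that binds β-catenin, which values per gene do not separate. It was at 156.9, 121.9 and 159.6 FPKM in WT NS OPCs and at 1104, 882 and 1036 FPKM in WT St OPCs (replicates 2, 3 and 4). The TNFR2-/- libraries were at 207, 158 and 180.3 FPKM without stimulation and at 1606, 1170 and 1063 FPKM with it (replicates 2, 4 and 5). The St libraries lay far above all NS libraries in both genotypes. The log2 fold change was 2.79 ± 0.17 SE in WT (6.89-fold, adjusted p = 1.01e-06) and 2.80 ± 0.17 SE in TNFR2-/- OPCs (6.95-fold, adjusted p = 8.1e-07), and the call held under all alternatives tried.

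*Tcf7l1* and *Tcf7l2* were not called upregulated. *Tcf7l1*, which encodes the mostly repressive TCF3, was at 12.8 ± 1.28 FPKM in WT NS and 8.98 ± 1.07 FPKM in WT St OPCs (SD, n = 3), with a log2 fold change of −0.49 ± 0.25 SE (adjusted p = 0.232). Values in TNFR2-/- OPCs were 19.7, 16.7 and 33.0 FPKM without stimulation and 7.89, 10.2 and 13.8 FPKM with it, and these groups did not overlap. There it was downregulated by a log2 fold change of −1.06 ± 0.25 SE (adjusted p = 0.00944), which was not called when the spread was estimated from the 6 libraries compared (adjusted p = 0.0653). With the replicate number as a block, its change in WT also passed the adjusted p (0.0448) but not the fold change. *Tcf7l2* differed by 0.05 ± 0.15 SE in WT (95% interval −0.28 to 0.37) and by −0.19 ± 0.15 SE in TNFR2-/- OPCs (95% interval −0.52 to 0.14).

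The make-up of the TCF/LEF transcripts differed between NS and St OPCs. Per kilobase of exon, *Tcf7* supplied 35.9% to 39.4% of the summed level of *Tcf7*, *Tcf7l1*, *Tcf7l2* and *Lef1* in WT NS and 80.9% to 86.0% in WT St OPCs. In TNFR2-/- OPCs its share was 27.2% to 39.5% without and 79.5% to 90.4% with stimulation. *Tcf7l1* supplied 33.6% to 36.0% of the sum in WT NS OPCs, against 6.41% to 9.29% in WT St OPCs. The sum itself was 10.7 to 13.1 CPM per kilobase in WT NS, 34.5 to 40.6 in WT St, and 14.1 to 20.9 and 42.3 to 56.2 in TNFR2-/- OPCs.

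The changes of the β-catenin and *Axin1* transcripts were under the size asked for a call. *Ctnnb1* was at 1631 ± 31.7 FPKM in WT NS and 1772 ± 36.1 FPKM in WT St OPCs (SD, n = 3), a log2 fold change of 0.12 ± 0.04 SE (adjusted p = 0.088), which had an adjusted p of 0.0149 with the replicate number as a block. In TNFR2-/- OPCs it was at 1725 ± 35 and 1772 ± 41.8 FPKM (log2 fold change 0.04 ± 0.04 SE, adjusted p = 0.55). With median-of-ratios scaling *Ctnnb1* passed the adjusted p in both genotypes (0.18 with 0.0137 and 0.16 with 0.0206). *Axin1*, the scaffold of the destruction complex, differed by −0.17 ± 0.07 SE in WT (adjusted p = 0.154) and by −0.16 ± 0.07 SE in TNFR2-/- OPCs (adjusted p = 0.125). It was lower with stimulation within each genotype and replicate number, and with that number as a block it passed the adjusted p in both genotypes (0.0452 and 0.0384).

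Among the feedback genes, *Axin2*, the inducible counterpart of *Axin1*, was upregulated while *Rnf43* was downregulated. *Axin2* (ENSMUSG00000000142, chromosome 11, 108920349 to 108950783, plus strand) was at 20.6, 13.7 and 19.8 FPKM in WT NS OPCs and at 52.3, 38.3 and 49.8 FPKM in WT St OPCs. TNFR2-/- OPCs had 27.95, 16.8 and 13.8 FPKM without and 82.2, 64.3 and 50.7 FPKM with stimulation. Every St library was above every NS library. The log2 fold change was 1.36 ± 0.27 SE in WT (2.57-fold, adjusted p = 0.00543) and 1.76 ± 0.27 SE in TNFR2-/- OPCs (3.39-fold, adjusted p = 0.000798), and the call held under all alternatives tried. An antisense gene, *Gm11670*, covers 3.8% of its exon bases, and whether the counting used strand is not given in the sources used here. The same limit holds for other named genes. Opposite-strand genes cover 14.6% of the exon bases of *Ctnnb1* (*Ulk4*), 13.7% of *Lef1* (*Gm43352*) and 4.6% each of *Tcf7l1* and *Wnt5a*.

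*Rnf43*, a ubiquitin ligase that like *Znrf3* clears Frizzled receptors, was at 2.24, 3.599 and 2.601 FPKM in WT NS and at 0.626, 1.88 and 1.52 FPKM in WT St OPCs. These rest on 25 to 36 and on 7 to 21 read pairs per library. The TNFR2-/- libraries were at 3.04, 4.26 and 3.81 FPKM without and at 1.16, 1.33 and 1.31 FPKM with stimulation, with no overlap in either genotype. The log2 fold change was −0.90 ± 0.25 SE in WT (adjusted p = 0.0368) and −1.24 ± 0.25 SE in TNFR2-/- OPCs (adjusted p = 0.00509). The WT call was lost without WT NS replicate 3 or 4 (adjusted p = 0.134 and 0.0784), WT St replicate 2 or 4 (0.086 and 0.059) or TNFR2-/- St replicate 2 or 4 (0.0512 and 0.0518), with median-of-ratios scaling (0.0534), with no filter (0.0781) and over the 6 libraries compared (0.101). *Rnf43* was not counted in either genotype where a mean of 2 CPM was asked for.

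The other feedback genes differed less. *Znrf3* was at 14.6, 15.6 and 15.2 FPKM in WT NS and 15.6, 14.9 and 14.7 FPKM in WT St OPCs, groups that overlapped, with a log2 fold change of −0.01 ± 0.07 SE (adjusted p = 0.969). In TNFR2-/- OPCs its log2 fold change was 0.26 ± 0.07 SE (adjusted p = 0.0149), under the size asked for a call, and it did not pass the adjusted p without TNFR2-/- St replicate 4 (0.0501). *Apcdd1*, a membrane inhibitor of Wnt signaling, differed by −0.03 ± 0.08 SE in WT (adjusted p = 0.892) and by −0.42 ± 0.08 SE in TNFR2-/- OPCs (adjusted p = 0.0048), and *Nkd1*, which binds Dishevelled, by −0.16 ± 0.11 SE and −0.24 ± 0.11 SE (adjusted p = 0.426 and 0.157, the latter 0.0168 with the replicate number as a block).

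RefSeq promoter windows on GRCm38.p6 (250 bases before to 50 after a start site) were found for 35 of the 52 genes. They were searched on both strands for the TCF/LEF core (CTTTGAA or CTTTGTT or CTTTGAT or CTTTGTA), for the STAT site GAS (TTCNNNGAA), for the core of the interferon-stimulated response element and for NF-κB. These genes had 45 windows. The TCF/LEF core was in 7 of the 45, where 16.9% of all 32851 promoters hold it, GAS in 2 (8.3% of all promoters), the response element core in 0 (3.44%) and NF-κB in 5 (8.46%). Of the 10 genes called with stimulation in either genotype 7 had a window, and none of these windows held any of the motifs, which says only that these letters are absent there. The 250 bases upstream of *Axin2* (chr11:108920099-108920348 of GRCm38.p6, plus strand) are shown from RefSeq because *Axin2* is the member best known as a target of TCF/LEF proteins. They are given 5′ to 3′, all in lower case since none of the motifs was found.
*Axin2*: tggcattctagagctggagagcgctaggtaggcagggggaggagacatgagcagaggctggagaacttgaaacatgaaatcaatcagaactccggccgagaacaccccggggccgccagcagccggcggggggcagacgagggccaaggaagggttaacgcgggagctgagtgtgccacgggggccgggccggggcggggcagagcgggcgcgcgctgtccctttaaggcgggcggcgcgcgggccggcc

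Among the 12 receptors, *Fzd10* and *Fzd2* were downregulated in both genotypes, and no receptor was called upregulated in the main fit. *Fzd10* (ENSMUSG00000081683, chromosome 5, 128600844 to 128604093, plus strand) was at 17.5, 10.4 and 14.2 FPKM in WT NS OPCs and at 4.06, 4.59 and 5.83 FPKM in WT St OPCs. Values in TNFR2-/- OPCs were 27.4, 14.0 and 18.0 FPKM without and 4.39, 4.56 and 6.66 FPKM with stimulation. The highest St library was below the lowest NS library in each genotype. The log2 fold change was −1.43 ± 0.26 SE in WT (2.70-fold lower, adjusted p = 0.00374) and −1.80 ± 0.26 SE in TNFR2-/- OPCs (3.48-fold lower, adjusted p = 0.000632), and the call held under all alternatives tried.

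*Fzd2* (ENSMUSG00000050288, chromosome 11, 102604396 to 102608058, plus strand) was at 11.8, 7.93 and 11.7 FPKM in WT NS and at 5.58, 3.39 and 6.80 FPKM in WT St OPCs. In TNFR2-/- OPCs it was at 14.9, 10.98 and 16.1 FPKM without and at 6.02, 6.05 and 4.79 FPKM with stimulation, and neither genotype showed overlap. The log2 fold change was −0.96 ± 0.24 SE in WT (adjusted p = 0.0205) and −1.23 ± 0.24 SE in TNFR2-/- OPCs (adjusted p = 0.00385). The WT call was lost without WT NS replicate 2 or 4 (adjusted p = 0.0783 and 0.0757), without WT St replicate 3 (0.0609) and over the 6 libraries compared (0.0558), while the call in TNFR2-/- OPCs held throughout.

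None of the other receptors was called with stimulation in the main fit. *Fzd1* was at 63.9, 72.9 and 61.6 FPKM in WT NS and 72.0, 77.2 and 67.5 FPKM in WT St OPCs, which overlapped (log2 fold change 0.13 ± 0.14 SE, adjusted p = 0.631). TNFR2-/- OPCs had 60.8, 65.2 and 80.0 FPKM without and 82.5, 96.5 and 118 FPKM with stimulation, without overlap (log2 fold change 0.52 ± 0.14 SE, adjusted p = 0.0181), below the size asked for a call. It was called without TNFR2-/- NS replicate 5 (0.64, adjusted p = 0.00952) or TNFR2-/- St replicate 2 (0.65, adjusted p = 0.00818), and did not pass the adjusted p without TNFR2-/- NS replicate 2 or 4 (0.0671 and 0.0544), without TNFR2-/- St replicate 5 (0.0549) or over the 6 libraries (0.0839). The co-receptor *Lrp6* fell by 0.37 on the log2 scale in WT (SE 0.06, adjusted p = 0.00181) and by 0.24 in TNFR2-/- OPCs (SE 0.06, adjusted p = 0.0149), the latter not past the threshold with median-of-ratios scaling (0.21), over the 6 libraries (0.0938) or without TNFR2-/- NS or St replicate 2 (0.0503 and 0.0517). Its partner *Lrp5* differed by 0.21 ± 0.13 SE (adjusted p = 0.373) and 0.09 ± 0.13 SE (adjusted p = 0.676). Of the others, *Fzd3* and *Fzd4* passed the adjusted p in WT (log2 fold change −0.44 for both, adjusted p = 0.00932 and 0.0118) and *Fzd8* in TNFR2-/- OPCs (−0.56, adjusted p = 0.00562), all under the size asked for. *Fzd8* was called there without TNFR2-/- NS or St replicate 4 (−0.64 and −0.60, adjusted p = 0.00607 and 0.0121). With the replicate number as a block *Fzd9* passed the adjusted p in both genotypes (−0.37 with 0.018 in WT and −0.33 with 0.022 in TNFR2-/- OPCs), as did *Fzd8* (0.0398) and *Fzd1* (0.0476) in WT, all under the size asked for. The *Fzd4* value in WT did not pass without WT NS replicate 3 (0.0513) or WT St replicate 4 (0.0555). Summed over the Frizzled genes, the level was 53.2 to 55.6 CPM per kilobase in WT NS, 50.5 to 52.1 in WT St, and 56.0 to 68.0 and 61.4 to 75.8 in TNFR2-/- OPCs.

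**Figure D3:**
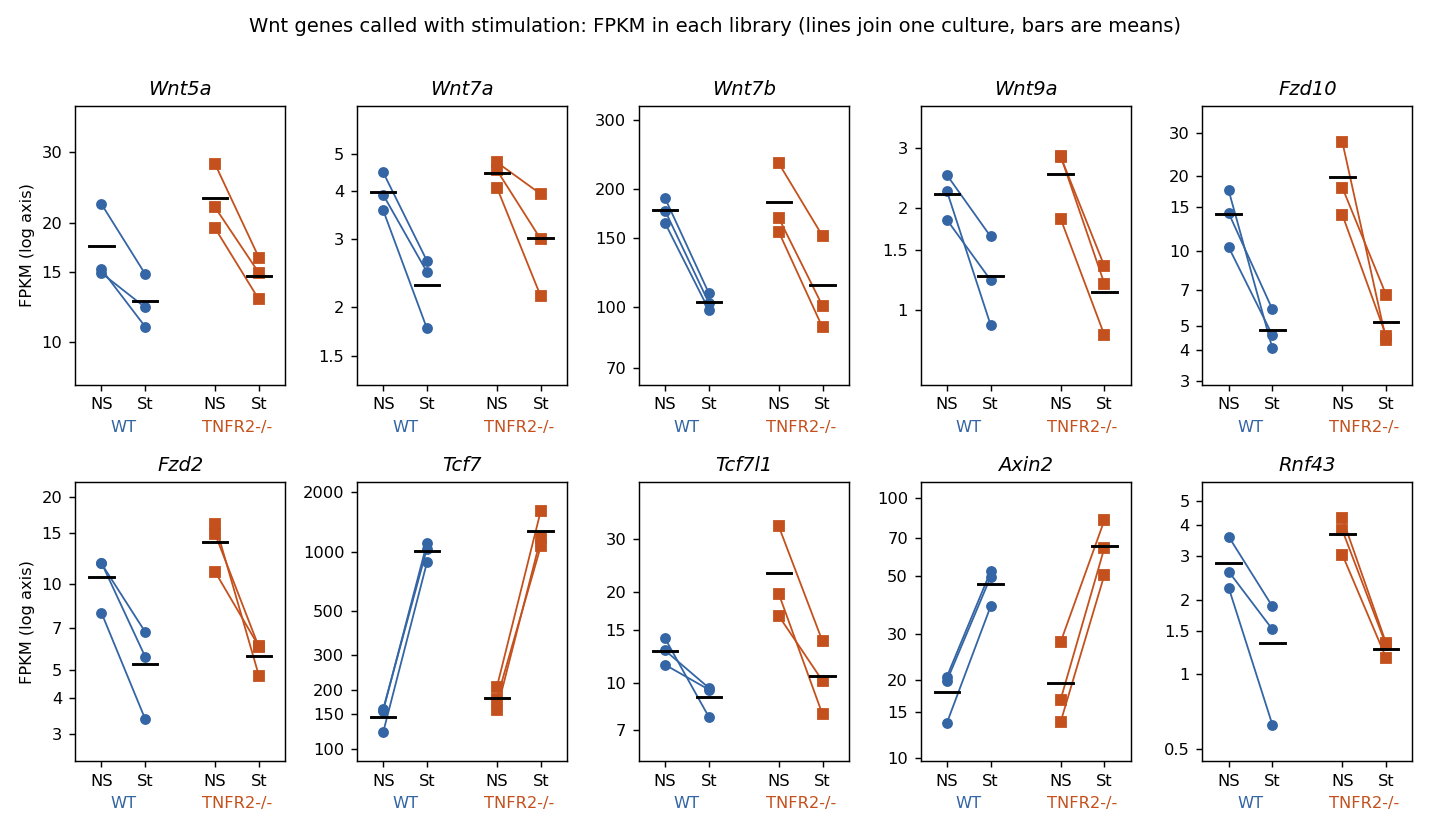
FPKM on a log axis in each of the 12 libraries for the 10 Wnt genes called with stimulation in at least 1 genotype; circles are WT and squares TNFR2-/- libraries, lines join NS and St of one replicate number within a genotype, and black bars are group means. *Tcf7* and *Axin2* are higher in every St library, and *Fzd10*, *Fzd2* and *Rnf43* lower, than in every NS library of the same genotype.

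In the main fit no ligand was called upregulated with stimulation, and 4 were called downregulated in at least 1 genotype, *Wnt7a*, *Wnt7b*, *Wnt5a* and *Wnt9a*. *Wnt7b* (ENSMUSG00000022382, chromosome 15, 85535437 to 85582473, minus strand), the main ligand of these cells, was at 190, 177 and 164 FPKM in WT NS and at 109, 103 and 98.7 FPKM in WT St OPCs. The TNFR2-/- libraries were at 156, 233 and 169 FPKM without and at 88.9, 152 and 101 FPKM with stimulation. In both genotypes the St libraries were below the NS libraries. Between the NS and St libraries of WT replicates 2, 3 and 4 it changed by −0.80, −0.78 and −0.73 on the log2 scale. For TNFR2-/- replicates 2, 4 and 5 the changes were −0.81, −0.61 and −0.74. Over the limma and voom alternatives the adjusted p ran from 4.32e-05 to 0.0695 in WT and from 4.31e-05 to 0.0997 in TNFR2-/- OPCs. The log2 fold change was −0.77 ± 0.19 SE in WT (adjusted p = 0.0191) and −0.72 ± 0.19 SE in TNFR2-/- OPCs (adjusted p = 0.0184). The WT call was lost without WT NS replicate 2 or 3 (adjusted p = 0.0695 and 0.0559) or WT St replicate 3 or 4 (0.054 and 0.0664), and the TNFR2-/- call without TNFR2-/- NS replicate 4 (0.0615), without TNFR2-/- St replicate 2 or 5 (0.0651 and 0.058), with median-of-ratios scaling (0.0568) and over the 6 libraries (0.0997). The antisense gene *AU022754* covers 6.6% of its exon bases.

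*Wnt7a*, which acts on brain endothelial cells together with *Wnt7b*, was at 4.48, 3.57 and 3.92 FPKM in WT NS and at 2.64, 1.76 and 2.47 FPKM in WT St OPCs, without overlap (log2 fold change −0.69 ± 0.19 SE, adjusted p = 0.0292). Values in TNFR2-/- OPCs were 4.75, 4.53 and 4.09 FPKM without and 3.94, 3.01 and 2.14 FPKM with stimulation (log2 fold change −0.52 ± 0.19 SE, adjusted p = 0.0661, and 0.0111 with the replicate number as a block), and it was called there without TNFR2-/- St replicate 2 (−0.70, adjusted p = 0.0204) and with voom (−0.59, adjusted p = 0.0374). The WT call was lost without WT NS replicate 2 or 4 (0.105 and 0.0736), without WT St replicate 3 or 4 (0.106 and 0.0592) and with no filter (0.0622).

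*Wnt5a*, a ligand known mainly for signaling that does not use β-catenin, was at 22.3, 15.3 and 14.9 FPKM in WT NS and at 14.9, 10.96 and 12.3 FPKM in WT St OPCs (log2 fold change −0.43 ± 0.18 SE, adjusted p = 0.154, and 0.00489 with the replicate number as a block). In TNFR2-/- OPCs it was at 28.01, 21.8 and 19.3 FPKM without and at 16.3, 14.95 and 12.8 FPKM with stimulation (log2 fold change −0.62 ± 0.18 SE, adjusted p = 0.031). Within each genotype and replicate number *Wnt5a* was lower with stimulation than without. The call in TNFR2-/- OPCs was lost without TNFR2-/- NS replicate 2 or 4 (0.109 and 0.0575), without TNFR2-/- St replicate 4 or 5 (0.0686 and 0.0945), with median-of-ratios scaling (0.0823), with no filter (0.0568) and over the 6 libraries (0.0523).

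*Wnt9a* was at 1.85, 2.24 and 2.50 FPKM in WT NS and at 1.23, 0.906 and 1.65 FPKM in WT St OPCs, from 57 to 77 and 28 to 51 read pairs (log2 fold change −0.63 ± 0.20 SE, adjusted p = 0.0568). With the replicate number as a block its fall in WT was called (adjusted p = 0.0083), as it was without WT St replicate 4 (−0.78, adjusted p = 0.0385), TNFR2-/- NS replicate 5 (0.0373) or TNFR2-/- St replicate 5 (0.0496). TNFR2-/- OPCs had 2.84, 2.83 and 1.86 FPKM without and 1.198, 1.35 and 0.847 FPKM with stimulation, and it was called there (log2 fold change −0.88 ± 0.20 SE, adjusted p = 0.00855), though not counted where a mean of 2 CPM was asked for.

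The remaining 9 tested ligands were not called in the main fit. *Wnt10a* passed the adjusted p in both genotypes (log2 fold change 1.07 with an adjusted p of 0.0153 in WT, and 1.09 with 0.00972 in TNFR2-/- OPCs) with a mean under 1 FPKM, from 0 to 5 read pairs in NS and 6 to 20 in St libraries. Its WT value did not pass without WT NS replicate 3 or 4 (0.0633 and 0.0553) or WT St replicate 2 or 4 (0.0518 and 0.0569). With the replicate number as a block *Wnt2* was called upregulated in WT (0.84, adjusted p = 0.0429) and *Wnt9b* in TNFR2-/- OPCs (1.46, adjusted p = 0.00387). *Wnt2* was also called without WT St replicate 2 in WT (1.16, adjusted p = 0.019) and, in the other direction, without TNFR2-/- St replicate 4 in TNFR2-/- OPCs (−1.004, adjusted p = 0.0343). *Wnt9b* was called in TNFR2-/- OPCs without WT NS replicate 3 (0.0377), TNFR2-/- NS replicate 2 (1.82, adjusted p = 0.0354) or TNFR2-/- St replicate 5 (1.74, adjusted p = 0.0456). Voom at the minimum of 1 FPKM also called it there (1.665, adjusted p = 0.0415), but not at 2 CPM. So did limma with 1 FPKM added (adjusted p = 0.0451) or a filter of 1 FPKM (0.0448). *Wnt2* had 24 to 90 read pairs per library and *Wnt9b* 2 to 33. Summed over all ligands, the level was 34.0 to 39.1 CPM per kilobase in WT NS, 22.2 to 24.5 in WT St, and 37.0 to 46.1 and 22.6 to 31.5 in TNFR2-/- OPCs, so that the St libraries were below the NS libraries in each genotype.

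None of the 8 tested secreted inhibitors was called with stimulation in either genotype in the main fit. *Sfrp1* was at 24.0, 22.6 and 25.6 FPKM in WT NS and at 31.6, 29.7 and 33.9 FPKM in WT St OPCs. The TNFR2-/- libraries were at 22.4, 19.7 and 18.1 FPKM without and at 30.7, 27.1 and 27.1 FPKM with stimulation. The groups did not overlap in either genotype, and the log2 fold change was 0.39 ± 0.09 SE in WT (adjusted p = 0.0153) and 0.49 ± 0.09 SE in TNFR2-/- OPCs (adjusted p = 0.00319), under the size asked for a call. The WT value did not pass without WT NS replicate 3 (0.0624) or WT St replicate 4 (0.0679). For the other inhibitors no adjusted p passed. *Sfrp4* had a log2 fold change of 0.41 in WT (adjusted p = 0.14) and 0.47 in TNFR2-/- OPCs (adjusted p = 0.0646). It was called in TNFR2-/- OPCs without TNFR2-/- NS replicate 2 (0.68, adjusted p = 0.00522) and passed there with median-of-ratios scaling (0.0339) or quantile scaling (0.0467), and in WT over the 6 libraries (0.0177) or without TNFR2-/- NS replicate 2 (0.0403). *Dkk3* passed in WT with the replicate number as a block (0.31, adjusted p = 0.0275). *Dkk1*, whose product blocks LRP5 and LRP6, had 0 to 7 read pairs per library.

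Further genes of the pathway were taken from a list of 76, of which 70 were tested. With stimulation 12 were called in WT (17.1%, 3 up and 9 down), where 7.53% of all genes were. The count in TNFR2-/- OPCs was 14 (20%, 3 up and 11 down, or 4 up and 6 down with median-of-ratios scaling), where 10.1% of all genes were. The median log2 change of the 70 was −0.163 and −0.181, beside −0.055 and −0.109 over all genes tested. *Rspo3*, which encodes a secreted R-spondin that enhances Wnt signaling by neutralizing RNF43 and ZNRF3, showed the largest change. It was at 0.562, 0.489 and 0.438 FPKM in WT NS and at 13.9, 11.9 and 10.4 FPKM in WT St OPCs, from 7 to 9 and 166 to 223 read pairs. Values in TNFR2-/- OPCs were 0.125, 0.744 and 0.495 FPKM without and 12.9, 14.4 and 15.2 FPKM with stimulation. The St libraries were far above the NS libraries, and the log2 fold change was 3.65 ± 0.21 SE in WT and 3.995 ± 0.21 SE in TNFR2-/- OPCs (adjusted p = 8.49e-07 and 3.68e-07), which the added 0.5 FPKM shrinks. *Lgr5*, which encodes a receptor for R-spondins, was not called with stimulation in either genotype. An antisense gene covers 13.1% of the exon bases of *Rspo3*.

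Among the downregulated pathway genes were *Cxxc5*, a binding partner of Dishevelled (log2 fold change −1.69 ± 0.12 SE in WT and −2.04 ± 0.12 SE in TNFR2-/- OPCs, adjusted p = 3.7e-06 and 7.33e-07), and genes of the planar cell polarity branch. Of the latter, *Vangl1* fell by 1.04 and 1.11 on the log2 scale (adjusted p = 0.000247 and 0.000116) and *Prickle2* by 0.66 and 0.93 (adjusted p = 0.0252 and 0.00289). The *Prickle2* call in WT was lost when any WT library but WT St replicate 3 was left out (adjusted p = 0.0591 to 0.0928). *Dact1*, whose product binds Dishevelled, fell by 1.26 and 1.007 (adjusted p = 0.019 and 0.0359). Its call in WT was lost without WT NS replicate 2 or 3 (0.0642 and 0.0601) or WT St replicate 2 or 4 (0.0626 and 0.0537), and its call in TNFR2-/- OPCs without WT St replicate 4 (0.0522), TNFR2-/- NS replicate 2 or 4 (0.0754 and 0.0724) or TNFR2-/- St replicate 2 or 5 (0.0874 and 0.101) and with median-of-ratios scaling (0.0749). Another gene covers 34.9% of its exon bases. Upregulated beside *Rspo3* were *Tle1*, a co-repressor of TCF proteins (0.62 ± 0.10 SE and 1.09 ± 0.10 SE, adjusted p = 0.00121 and 1.54e-05), and *Cd44* (0.78 ± 0.16 SE and 1.23 ± 0.16 SE, adjusted p = 0.00598 and 0.000234). *Ccnd1* in TNFR2-/- OPCs and *Tnfrsf19* in WT, both outside the rule for named genes, were called downregulated. Each of these calls was lost under some alternatives. The *Tle1* change in WT was under the size asked for without WT NS replicate 4 (0.57) or WT St replicate 2 (0.58). The summed level of the 8 neuron markers also differed with stimulation. The sum was 188 to 221 CPM in WT NS, 544 to 549 in WT St, and 157 to 187 and 546 to 613 in TNFR2-/- OPCs. The 9 OPC markers had sums of 8602 to 9968 CPM in WT NS, 7143 to 8217 in WT St, and 8608 to 9415 and 7494 to 8226 in TNFR2-/- OPCs. The part of these markers in the changes with stimulation was not tested.

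In the main limma fit no Wnt gene was called between genotypes. In NS OPCs limma called 0 of 43 members, where 2.9% of all genes were called, and 0 were called with voom on the recovered read pairs at the same minimum of 1 FPKM. With a minimum of 2 CPM in its place, a setting chosen after the data were seen, voom called 1, *Wnt5b*. It was at 0.372, 0.279 and 0.345 FPKM in WT NS and 0.509, 0.518 and 0.819 FPKM in TNFR2-/- NS OPCs, without overlap. The log2 difference was 0.41 ± 0.12 SE with limma (adjusted p = 0.057), which the added 0.5 FPKM shrinks, and 0.85 with voom (adjusted p = 0.0326). In 9 members the unadjusted p was under 0.05, where 30.2% of all genes had such a p. The only member past the adjusted p was *Lrp6* (10.9% of all genes passed), at 67.0, 68.5 and 67.3 FPKM in WT NS and 57.8, 53.7 and 58.6 FPKM in TNFR2-/- NS OPCs. These groups did not overlap, but the difference was small (log2 fold change −0.25 ± 0.06 SE, adjusted p = 0.0307), and it did not pass when any NS library (0.0545 to 0.113) or WT St replicate 4 (0.0503) was left out. In 10 members the genotypes did not overlap, where 34.2% of all genes did not.

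On the log2(FPKM + 0.5) scale of the main fit, *Tcf7l1* had the largest difference between NS groups among the members (log2 fold change 0.77 ± 0.25 SE, 95% interval 0.23 to 1.32, adjusted p = 0.0672), with its highest value, 33.0 FPKM, in TNFR2-/- NS replicate 5. Without TNFR2-/- NS replicate 4 it was called (0.97, adjusted p = 0.0345). The smallest difference over the alternatives, 0.49, came without TNFR2-/- NS replicate 5. Its adjusted p ran from 0.0345 to 0.199 over the limma and voom alternatives. For the genes that led the response, the NS difference was 0.32 ± 0.17 SE for *Tcf7* (95% interval −0.05 to 0.69), 0.07 ± 0.27 SE for *Axin2* (−0.52 to 0.66) and 0.46 ± 0.26 SE for *Fzd10* (−0.13 to 1.04). Among the other pathway genes 2 of the 70 were called between NS genotypes (2.86%), where 2.9% of all genes were. The R-spondin receptor gene *Lgr5* was lower and *Celsr1*, a planar cell polarity cadherin outside the rule for named genes, higher in TNFR2-/- NS OPCs. *Lgr5* was at 94.1, 118 and 121 FPKM in WT and 52.4, 64.7 and 25.7 FPKM in TNFR2-/- OPCs (log2 fold change −1.31 ± 0.31 SE, adjusted p = 0.0295), and *Celsr1* at 13.9, 9.46 and 10.4 against 22.6, 17.8 and 16.5 FPKM (0.73 ± 0.17 SE, adjusted p = 0.0301). Both calls were lost without WT NS replicate 3 or 4 (0.098 to 0.119) or TNFR2-/- NS replicate 2 or 5 (0.0577 to 0.088), with no filter (0.0555 and 0.054) and over the 6 libraries (0.0986 and 0.0954). The astrocyte markers given above were higher in the libraries labelled TNFR2-/- in the same comparison, and their part in these differences was not tested.

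**Figure D4:**
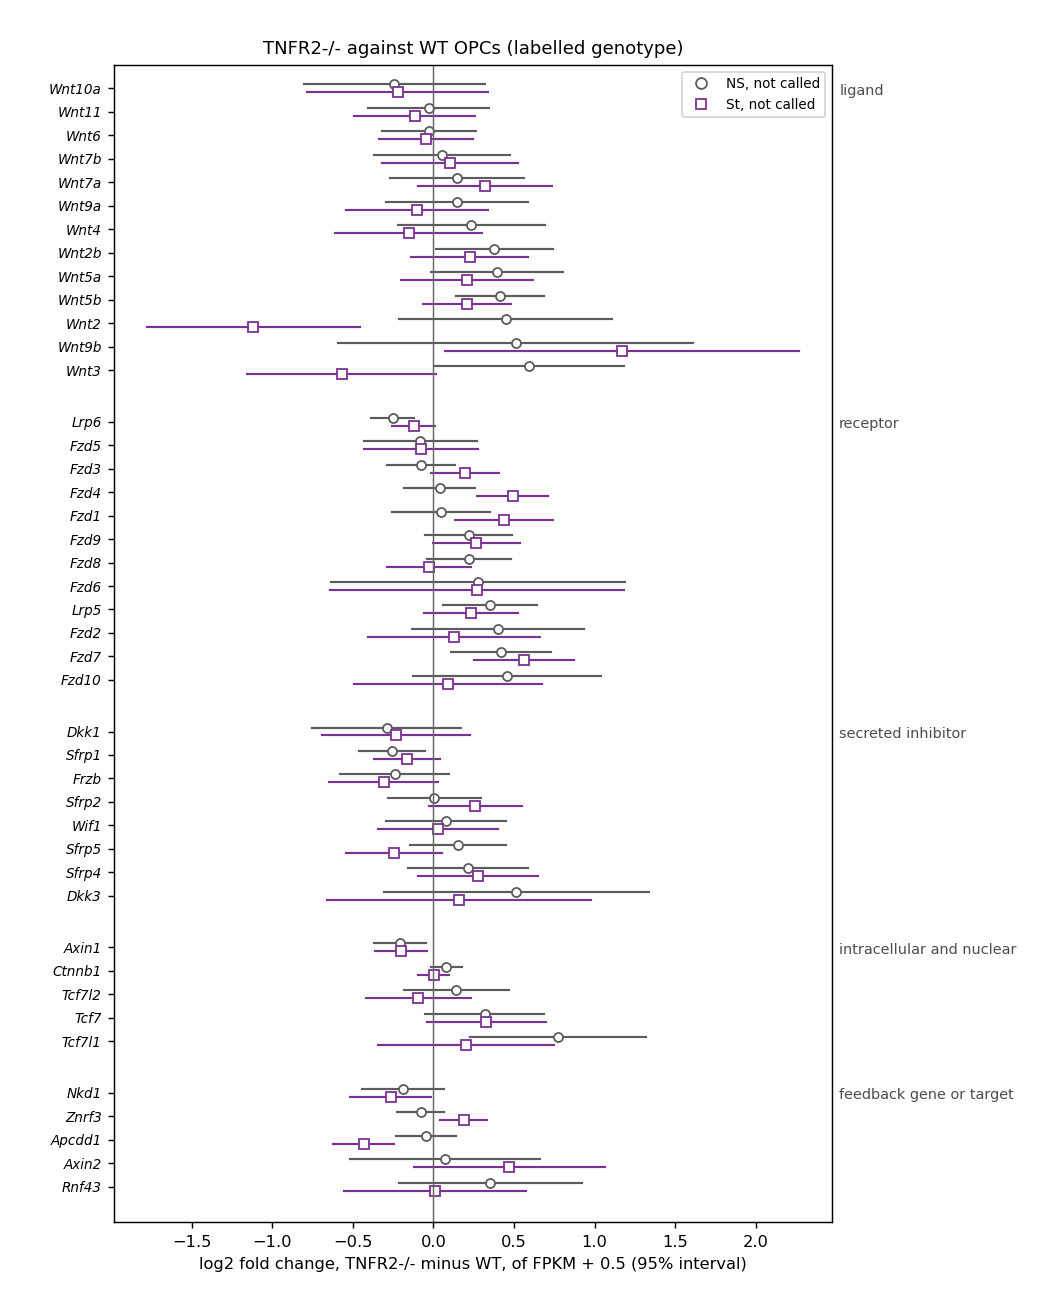
Log2 fold change of TNFR2-/- against WT OPCs by label, on the log2(FPKM + 0.5) scale with 95% intervals, of the 43 tested Wnt genes grouped by role, circles for NS and squares for St. All symbols are open because no gene was called in either condition; *Wnt2* in St OPCs lies farthest to the left at −1.12.

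In St OPCs 0 of 43 members were called between genotypes, where 1.8% of all genes were. Voom on the recovered read pairs called 1, *Fzd7* (0.60, adjusted p = 0.0268). In 9 members the unadjusted p was under 0.05, where 26.7% of all genes had such a p, and in 13 the groups did not overlap, where 32.7% of all genes did not. By adjusted p alone, which 5.45% of all genes passed, *Fzd4* (0.49 ± 0.10 SE, adjusted p = 0.0285) and *Fzd7* (0.56 ± 0.14 SE, adjusted p = 0.0459) were higher and *Apcdd1* (−0.43 ± 0.08 SE, adjusted p = 0.0253) lower in TNFR2-/- St OPCs. *Fzd4* was at 3.64, 4.12 and 3.26 FPKM in WT St and 5.47, 5.50 and 5.07 FPKM in TNFR2-/- St OPCs, and *Apcdd1* at 45.1, 43.9 and 41.2 against 29.4, 36.4 and 30.5 FPKM. Neither gene overlapped between genotypes, yet each was past 0.05 when any WT St library or TNFR2-/- St replicate 2 or 5 was left out (0.0597 to 0.106 for *Fzd4* and 0.0622 to 0.0996 for *Apcdd1*), and *Fzd7* when any St library (0.0655 to 0.16), WT NS replicate 2 or 4 (0.057 and 0.0687) or TNFR2-/- NS replicate 2 (0.0622) was. *Wnt2*, a canonical ligand, was at 11.3, 21.5 and 23.0 FPKM in WT St and 6.41, 11.95 and 6.43 FPKM in TNFR2-/- St OPCs, with a log2 fold change of −1.12 ± 0.30 SE (adjusted p = 0.0548). It was called without WT St replicate 2 (−1.44, adjusted p = 0.0352) or TNFR2-/- St replicate 4 (−1.40, adjusted p = 0.0337). *Fzd1* was higher in TNFR2-/- St than in WT St OPCs without overlap (0.44 ± 0.14 SE, adjusted p = 0.0791). It passed the adjusted p, under the size asked for, with a replicate block across genotypes (0.0173) or within genotype (0.0461). Of the other pathway genes 1 of 70 was called (1.43%), where 1.8% of all genes were. This was *Cd44*, higher in TNFR2-/- St OPCs (0.83 ± 0.16 SE, adjusted p = 0.0227). Its call was lost when any WT St library was left out (0.0519 to 0.0934) and over the 6 libraries (0.0806).

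Whether the response itself differed between genotypes was tested as the interaction of genotype and stimulation. With limma 0 of 43 members were called, where 0.00553% of all genes were, 0 were called with voom, and 5 had an unadjusted p under 0.05, where 7.95% of all genes did. These were *Apcdd1*, *Fzd4*, *Wnt2*, *Wnt3* and *Znrf3*, with adjusted p of 0.496 to 0.548. *Wnt2* changed by 0.52, 0.92 and 1.09 on the log2 scale between the NS and St libraries of WT replicates 2, 3 and 4, and by −1.08, 0.09 and −1.18 between those of TNFR2-/- replicates 2, 4 and 5, an interaction of −1.57 ± 0.42 SE (adjusted p = 0.496). For *Tcf7* the interaction was 0.01 ± 0.24 SE (95% interval −0.51 to 0.54), for *Axin2* 0.40 ± 0.38 SE (−0.44 to 1.24) and for *Fzd10* −0.37 ± 0.37 SE (−1.19 to 0.46). No difference in response between genotypes passed the test for any Wnt gene, which does not show that they responded alike.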

How the data were processed

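RNAseq was available for 12 libraries, 3 in each of 4 groups given by the labels. After trimming (Trim Galore) and alignment to GRCm38, the authors obtained gene-level read-pair numbers from STAR and FPKM from edgeR, and the deposited values are these FPKM in a table of NS and a table of St libraries, which were joined by gene symbol. Whole read pairs were recovered for 26635 of 26636 genes (tolerance 0.01), and 0 columns of per-library values were left out. The divisors between read pairs and FPKM did not follow exon length, so levels were compared between genes only per kilobase of annotated exon. Depth was 26886878 to 30335265 read pairs per library.

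Group means were fitted with limma 3.58.1 in R 4.3.3 on log2(FPKM + 0.5) over the 18081 genes whose mean reached 0.1 FPKM, with a mean-dependent prior variance. Fold changes are on that scale, which understates the change of low genes. A call needed a p, adjusted by Benjamini-Hochberg over all genes tested, not above 0.05, a change of 1.5-fold or more on that scale and a mean that reached 1 FPKM. The count of 3 libraries per group allows no exact permutation p under 0.1 for a single value. The fit was also run on simulated counts with known changes. These were drawn independently between libraries, without pairing, so that run does not bear on any single call given here. Tables and plots were made with Python 3.11.15, pandas 2.3.3 and matplotlib 3.10.9.

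Replicate numbers were checked by the correlation of deviations from group means over 13554 genes. It was 0.34 to 0.65 for the 6 NS–St pairs of one genotype and number, −0.46 to 0.09 for the 12 pairs with another number and −0.06 to 0.2 for the 4 pairs with the same number across genotypes. The numbers were therefore taken to pair NS and St libraries within a genotype, and the fit with that block is an alternative. The main fit does not use the pairing, so spread between replicate numbers enters its SE and p for stimulation.

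Genes named with values were every member called in any comparison, *Ctnnb1*, *Axin2*, *Lef1*, *Tcf7l2*, *Lrp5* and *Lrp6* in any case, the most abundant member of each role, and of the other pathway genes up to 8 called ones with the largest change. The members and all gene lists were chosen with earlier results of these data known. Alternatives changed the pseudocount, filters, scaling, the libraries in the fit, the prior, the call rule, the block and the tool (voom), and left out each library in turn. Voom with a minimum mean of 2 CPM was added after the data were seen.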

Additional observations from a re-analysis of the deposited data

Results flagged for a closer look

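*Wnt5b*, a ligand with a mean under 1 FPKM from 45 to 149 read pairs per library, was singled out because its change with stimulation had opposite signs in the genotypes in every pair of NS and St libraries. It changed by 0.04, 0.14 and 0.07 on the log2 scale in WT replicates 2, 3 and 4 and by −0.07, −0.08 and −0.21 in TNFR2-/- replicates 2, 4 and 5. The interaction was −0.21 ± 0.17 SE and did not pass the limma test (adjusted p = 0.837).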

How the results depend on the processing

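The alternatives gave 6256 values for 244 gene results. Of these, 5850 had the same direction and side of the threshold, 176 had the other sign but passed the threshold neither there nor as reported, 159 were weaker, 71 stronger and 0 reversed. By adjusted p alone, the number of Wnt genes past the threshold was 1 between NS genotypes, 12 with stimulation in WT, 16 in TNFR2-/- OPCs and 3 between St genotypes. For the 70 other pathway genes it was 6, 26, 31 and 5, where 10.9%, 16.1%, 26% and 5.45% of all genes passed. Between St genotypes 1 Wnt gene was called with a pseudocount of 0.1 FPKM, 1 with a filter of 1 FPKM, 1 with a replicate block across genotypes (*Wnt9b*) and 1 with voom (*Fzd7*). Voom with a minimum mean of 2 CPM, chosen after the data were seen, called 1 between NS genotypes (*Wnt5b*) and 1 between St genotypes (*Fzd7*). Of the other pathway genes, 0 were called between NS genotypes with no filter and 0 over the 6 libraries compared. Between St genotypes the number was 0 over the 6 libraries, 3 with no minimum mean and 2 with the replicate block across genotypes. Leaving out 1 library at a time gave 0 to 1 Wnt genes between NS genotypes, 4 to 8 with stimulation in WT, 8 to 10 in TNFR2-/- OPCs, 0 to 1 between St genotypes and 0 to 0 for the interaction. For the other pathway genes it gave 0 to 3, 8 to 14, 13 to 16, 0 to 1 and 0 to 0. The share of all genes called under each alternative is not given here. The counts therefore do not show whether these lists moved apart from all genes. The cause of these shifts was not tested, beyond the fewer genes or libraries that some alternatives use by construction.

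With the replicate block within genotype, the calls were 9 in WT (3 up and 6 down) and 10 in TNFR2-/- OPCs (3 up and 7 down). It added *Wnt2* and *Wnt9a* in WT and *Wnt9b* in TNFR2-/- OPCs and removed none of the Wnt genes, and it left the counts between genotypes and for the interaction at 0. Median-of-ratios scaling moved the split in TNFR2-/- OPCs from 2 up and 7 down to 4 up and 5 down for the Wnt genes, and from 3 up and 11 down to 4 up and 6 down for the other pathway genes. *Tcf7*, *Axin2* and *Fzd10* were called with stimulation in both genotypes under every alternative, and *Fzd2* in TNFR2-/- OPCs. Depth limits *Rnf43*, *Wnt9a*, *Wnt9b*, *Wnt10a* and the untested genes, which rest on few read pairs.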
